A study of Mus musculus with 23 samples.

Results

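The 36 genes described here encode the proteins that bring long-chain fatty acids into the heart muscle cell and oxidise them in its mitochondria. They were chosen by name, as the rows of the deposited expression table whose gene symbol is on a list of 36, and all 36 were found, each in 1 row, among 46077 genes. RNA sequencing was run on 23 libraries from hearts of male mice, 14 from isolated cardiomyocytes and 9 from whole hearts. The study is about heart failure without ischemia, and its title names metabolism of the cardiomyocyte and recruitment of neutrophils.

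Mice labelled wild-type were Panx1fl/fl, with a floxed gene for pannexin 1, a channel in the cell membrane, and mice labelled knockout were Panx1MyHC6, a name that points to a driver of the cardiomyocyte gene Myh6. The floxed alleles are thus shared by both genotypes, and other cells of the heart are not expected to lose the gene. Treatment was saline, or isoproterenol, an agonist of beta-adrenergic receptors, at 15 mg/kg/day for 14 days. Cardiomyocytes came from 3 wild-type and 3 knockout mice after saline and from 4 wild-type and 4 knockout mice after isoproterenol. Whole hearts, all after isoproterenol, were 5 labelled wild-type and 4 labelled knockout. The sources used here give no age. Each library carries its own identifier and was taken as 1 animal, which no label states, so that every p-value measures the spread between these libraries.

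Fatty acids enter the cardiomyocyte through Cd36 and Slc27a1, are held in the cytosol by Fabp3, are activated to acyl-CoA by the Acsl enzymes, and cross into the mitochondrion as carnitine esters through Cpt1 and Cpt2. Each turn of beta-oxidation then uses an acyl-CoA dehydrogenase, a hydratase, a hydroxyacyl-CoA dehydrogenase and a thiolase, and the electrons of the first step reach the respiratory chain through Etfa, Etfb and Etfdh. Malonyl-CoA, made by Acacb and removed by Mlycd, blocks Cpt1. The adult heart draws most of its energy from this pathway, and many of its genes are known targets of the nuclear receptor PPAR alpha.

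Some libraries stood apart or went against their labels, and every later result rests on them. Panx1 averaged 2.21 ± 0.663 FPKM (SD, n = 3) in wild-type and 1.67 ± 0.361 FPKM (SD, n = 3) in knockout preparations after saline, and 1.55 ± 0.282 FPKM (SD, n = 4) and 1.04 ± 0.123 FPKM (SD, n = 4) after isoproterenol. FPKM is a read count scaled by gene length and library size. Neither difference of the preparations passed the limma test used below (log2 difference -0.25, adjusted p = 0.895, and -0.32, adjusted p = 0.797). Their libraries overlapped after saline but not after isoproterenol, where 2.47% of genes were lower without overlap. Whole-heart means went the other way, at 0.651 ± 0.189 FPKM (SD, n = 4) under the knockout label but 0.412 ± 0.0657 FPKM (SD, n = 5) under the wild-type label. These hearts overlapped too (0.469 to 0.915 FPKM and 0.338 to 0.512 FPKM), all below 1 FPKM. Their genotype is given throughout as the label. The 10 cardiomyocyte markers used for the check, among them Myh6, Tnnt2 and Ryr2, were all above 1 FPKM on average in every group, and their summed level was 1022 to 10244 FPKM in the isolated preparations and 6348 to 13233 FPKM in whole hearts, so that the tissues overlapped. It was 1022 to 1702 FPKM in wild-type and 2742 to 3183 FPKM in knockout preparations after saline. After isoproterenol it was highest in the knockout libraries PNXM654 (10244 FPKM) and PNXM655 (7753 FPKM) and the wild-type library PNXM648 (8032 FPKM), and 2178 to 3448 FPKM in the other 5. Endothelial markers summed to 181 to 466 FPKM in the preparations and 111 to 152 FPKM in whole hearts, and neutrophil markers to 22.6 to 2697 FPKM and 0.186 to 2.57 FPKM, with 8 of 8 above 1 FPKM on average in both isoproterenol groups of preparations and 0 of 8 in whole hearts. Of the 8, only Ly6g was at 0 in all 4 hearts labelled knockout. The neutrophil sums overlapped by label, at 0.583 to 0.977 FPKM in these hearts and 0.186 to 2.57 FPKM in those labelled wild-type. Adipocyte markers summed to 6.05 to 28.1 FPKM in the preparations, and in whole hearts they reached 314 FPKM in PNXM199 and 231 FPKM in PNXM239, both labelled knockout. PNXM229 and PNXM242, also labelled knockout, were at 6.34 and 7.10 FPKM, and hearts labelled wild-type at 5.90 to 107 FPKM. Reads of the mitochondrial chromosome took 46.8 to 80.0% of assigned reads in the preparations and 16.7 to 25.4% in whole hearts, and in the preparations the share differed by group in opposite directions, as given beside each comparison, and assigned reads numbered 21.03 to 39.6 M per library. In such mixed samples, fewer cardiomyocytes and less RNA per cardiomyocyte cannot be told apart.

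Promoters are shown for the members that carry the sequence element known to bind PPAR alpha with its partner RXR. The part of this element in the levels was not tested. The element searched was a pair of half-sites AGGTCA in the same direction with 1 base between them, on either strand, with at most 2 mismatches, in windows from 250 bases before to 50 bases after the RefSeq start. RefSeq promoter windows (GRCm38.p6) were at hand for 31 of the 36 genes, in 34 windows, and 4 of the windows (11.8%) held the element, against 3.86% of all 32851 promoter windows. The half-site alone was in 23.5% of the members' windows and 16.3% of all windows. Below, each sequence runs 5′ to 3′ on the gene's own strand up to the RefSeq start or to the first annotated exon base, and capitals mark the element.
Cd36, chr5:17835897-17836146, minus strand: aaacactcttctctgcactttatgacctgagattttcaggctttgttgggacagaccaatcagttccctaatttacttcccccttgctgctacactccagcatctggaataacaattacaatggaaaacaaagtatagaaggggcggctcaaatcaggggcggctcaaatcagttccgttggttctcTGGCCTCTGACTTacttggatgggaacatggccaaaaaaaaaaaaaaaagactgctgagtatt
Ucp3, chr7:100472741-100472989, plus strand: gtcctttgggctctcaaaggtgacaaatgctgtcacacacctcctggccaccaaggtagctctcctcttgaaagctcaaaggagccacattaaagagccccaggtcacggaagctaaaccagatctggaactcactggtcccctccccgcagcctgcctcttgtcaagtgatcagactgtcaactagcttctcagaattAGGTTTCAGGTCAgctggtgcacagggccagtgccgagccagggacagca
Echs1, chr7:140116477-140116671, minus strand: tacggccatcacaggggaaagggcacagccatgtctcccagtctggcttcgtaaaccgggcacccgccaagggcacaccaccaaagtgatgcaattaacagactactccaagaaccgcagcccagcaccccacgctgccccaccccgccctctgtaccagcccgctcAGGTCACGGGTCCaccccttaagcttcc
Etfa, chr9:55512244-55512493, minus strand: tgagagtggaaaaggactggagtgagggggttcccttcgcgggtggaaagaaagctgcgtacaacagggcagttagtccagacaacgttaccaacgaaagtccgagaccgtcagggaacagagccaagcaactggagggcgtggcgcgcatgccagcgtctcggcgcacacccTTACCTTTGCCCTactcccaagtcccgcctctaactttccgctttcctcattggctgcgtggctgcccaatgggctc
The element lay 63 to 51 bases before the start in Cd36, 51 to 39 in Ucp3, 83 to 71 in Echs1 and 77 to 65 in Etfa. Each of these 4 has 2 mismatches, and a match describes letters in the window and is no evidence of binding. The Cd36 start used by RefSeq lies inside the longer gene of the deposited table, which reaches to base 17888801 of chromosome 5.

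Of the 36 genes, 34 averaged at least 1 FPKM in wild-type saline preparations and 33 in each of the other groups. Fabp3, the cytosolic fatty acid carrier, was the most abundant per length in every group, from 288 ± 107 FPKM (SD, n = 3) in wild-type saline preparations to 2585 ± 594 FPKM (SD, n = 5) under the wild-type label in whole hearts. Fabp3 made up 30.7 to 42.8% of the members' summed FPKM, depending on the group. In the preparations Cd36 came next in all 4 groups, followed by Acaa2, Ech1 and Etfb in varying order. In whole hearts Ech1, Acaa2, Etfb and Acadl all averaged more than Cd36, and their ranges over libraries overlapped. Acad10, whose role in the heart is less well known, stayed between 0.311 and 1.03 FPKM, and Acsl3 between 0.325 and 1.45 FPKM.

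Cpt1b, the muscle form of the outer carnitine palmitoyltransferase and the main form in adult heart, was nearly absent from the table. Its level was 0.0262, 0.0685 and 0.143 FPKM in wild-type and 0.129, 0.143 and 0.0547 FPKM in knockout preparations after saline, and 0, 0.0385, 0.0280 and 0.152 FPKM and 0.0443, 0.273, 0.220 and 0.0667 FPKM after isoproterenol. For Cpt1b whole hearts had 0.638, 0.661, 0.689, 0.563 and 0.508 FPKM when labelled wild-type and 0.341, 0.641, 0.621 and 0.721 FPKM when labelled knockout. The gene (chromosome 15, 89416405 to 89425863, minus strand) lies wholly inside the annotated span of Chkb, a choline kinase gene on the same strand that averaged 3.45 FPKM over the 23 libraries, so reads of either gene could be withheld or shared by the counting. Its level is therefore uncertain, and with values as deposited it did not pass the filter of 1 FPKM. Acsl3 and Acadvl also overlap other genes (Utp14b and Dvl2), which averaged 0.151 and 1.11 FPKM, and the sources used here do not state whether counting used the strand.

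**Figure D1:**
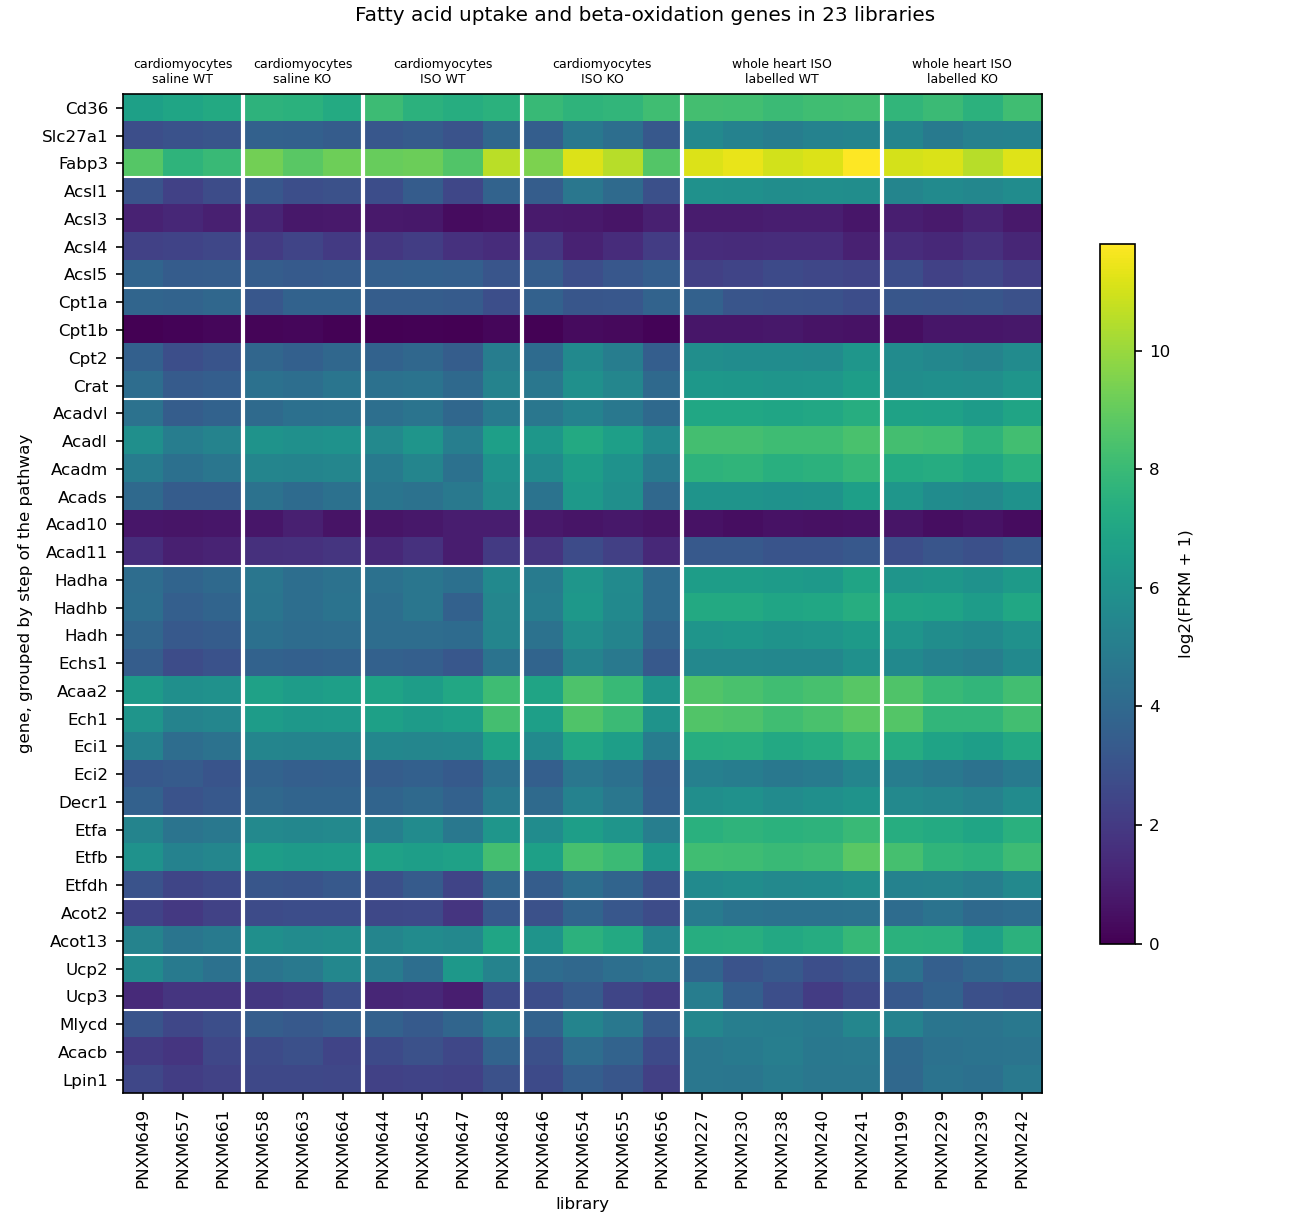
Level of each of the 36 genes (rows, grouped by step of the pathway) in each of the 23 libraries (columns, grouped by tissue, treatment and genotype label), as log2(FPKM + 1) on the colour scale. Most rows are brightest in the whole hearts and, among the preparations, in PNXM648, PNXM654 and PNXM655, while Acsl4, Acsl5, Cpt1a and Ucp2 are not.

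Within each group of preparations most members were high or low in the same library. Among wild-type isoproterenol preparations 29 of 36 members (80.6%) were highest in PNXM648, where 32.6% of the 10831 genes averaging at least 1 FPKM were. Among knockout isoproterenol preparations 29 were highest in PNXM654, against 40.9% of genes, and 29 were lowest in PNXM656, against 34.4% of genes. After saline, 28 of the wild-type values were lowest in PNXM657, against 38.8% of genes. In whole hearts 21 members were highest in PNXM241 among those labelled wild-type, against 44.1% of genes, and 22 were lowest in PNXM239 among those labelled knockout, against 35.7%. PNXM648, PNXM654 and PNXM241 also had the highest cardiomyocyte marker sums of their groups, and PNXM656, PNXM657 and PNXM239 the lowest. In 2 libraries this did not hold: PNXM663 was lowest for 23 members among knockout saline preparations and PNXM238 for 22 among hearts labelled wild-type, but the lowest sums of those groups were in PNXM664 and PNXM227.

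**Figure D2:**
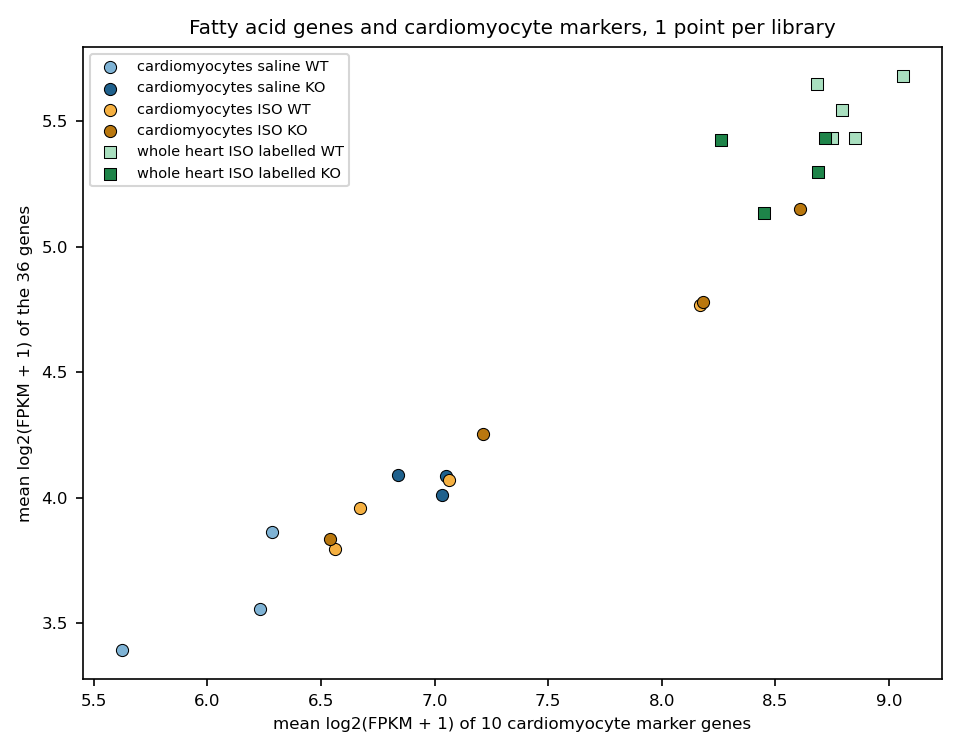
Mean log2(FPKM + 1) of the 36 genes (vertical axis) against that of 10 cardiomyocyte marker genes (horizontal axis), 1 point per library, circles for preparations and squares for whole hearts. The preparations run from 3.39 and 5.62 in PNXM657 to 5.15 and 8.61 in PNXM654, and 8 of the 9 whole hearts lie above the highest preparation on the vertical axis.

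Genotypes were compared first in cardiomyocytes of saline-treated mice. Members of nearly every step had higher means in knockout preparations: 29 of the 34 that passed the filter on low values, with a median log2 difference of 0.56, beside 51.6% of all genes and a median of 0.01, but with values set per assigned read the members' median was -0.29 and that of all genes -0.69. That scaling moved the median of all genes by over 0.1 in most comparisons, and the members' median minus that of all genes was 0.55 as deposited and 0.40 per assigned read. The filter asked for at least 1 FPKM in 3 libraries, and Cpt1b and Acad10 did not pass it. The 5 lower members were Acsl3, Acsl4, Acsl5, Cpt1a and Ucp2, which encode broadly expressed forms of the activating enzyme, the transferase and the uncoupling protein. Cd36, the main fatty acid transporter of muscle, differed by 0.52 ± 0.26 (log2 difference ± SE; adjusted p = 0.895), Slc27a1, a transporter that also activates fatty acids, by 0.61 ± 0.33, and Acot2, a mitochondrial thioesterase that releases fatty acid from acyl-CoA, by 0.55 ± 0.31.

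No member passed limma's test across all genes after saline, at an adjusted p below 0.05, and 0% of the 11919 genes did. At an unadjusted p below 0.05 the count of members was also 0, beside 2.67% of genes higher and 0.864% lower, and voom on the recovered reads called 0 of them. In 23 of the 34 members all 3 knockout libraries lay above all 3 wild-type libraries, which held for 11.9% of all genes, and in 1, Cpt1a, all lay below, which held for 2.89%. Sums of cardiomyocyte markers (given above) and endothelial markers did not overlap between these groups either, with endothelial sums of 181 to 269 FPKM in wild-type and 279 to 295 FPKM in knockout preparations, nor did the mitochondrial share of reads, at 55.3 to 65.0% and 69.3 to 80.0%. Their part in the differences was not tested. With the mean log2 level of the 10 markers as a covariate, an alternative chosen after the data were seen, the median over members was -0.11, with 7 of 34 higher. The marker level did not overlap between these groups, so the covariate cannot separate it from genotype.

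**Figure D3:**
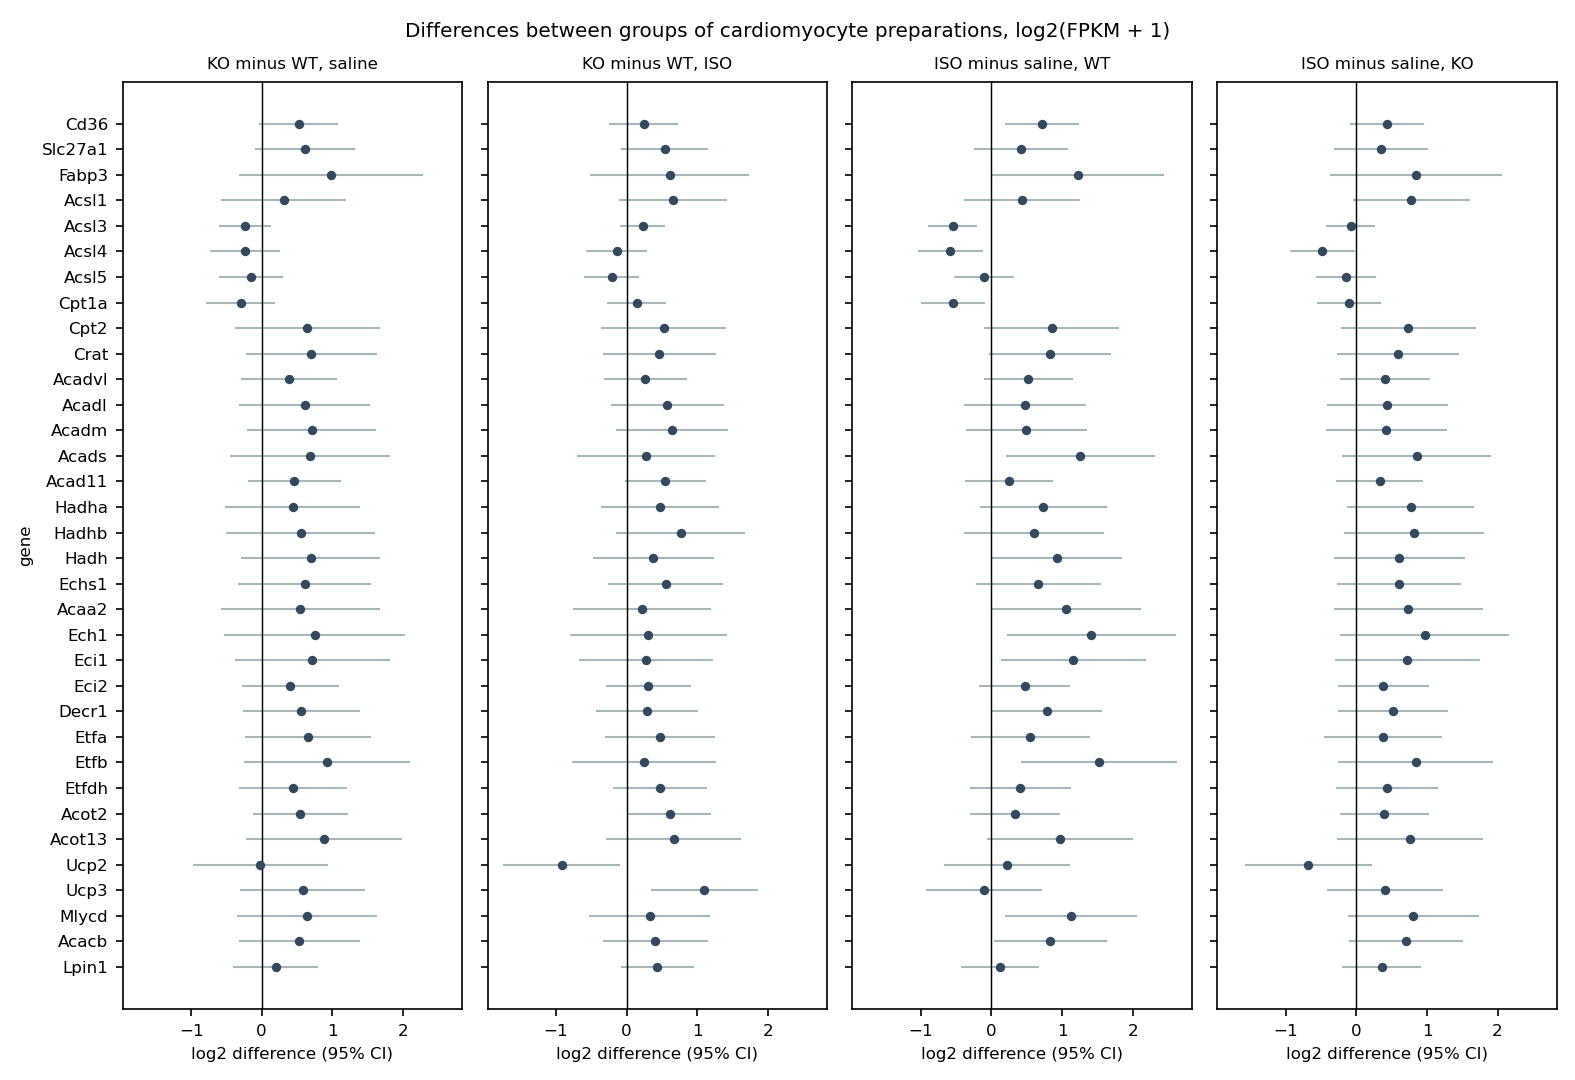
Differences of log2(FPKM + 1) between groups of cardiomyocyte preparations for the 34 members that passed the filter (points, with 95% confidence intervals from limma), in 4 comparisons. Most points lie to the right of 0 in each panel, and Acsl3, Acsl4, Acsl5, Cpt1a and Ucp2 lie apart, mostly to the left.

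After isoproterenol the same contrast of genotypes gave positive differences for 31 of 34 members, with a median of 0.42, beside 51.4% of all genes and a median of 0.01. Per assigned read the median was 1.13 and that of all genes 0.57, and 25 members were called higher, as were 44.9% of all genes. Ucp3, the uncoupling protein of muscle mitochondria, differed by 1.10 ± 0.35 (adjusted p = 0.797) and Acot2 by 0.61 ± 0.27 (adjusted p = 0.797). Ucp2, the form found in immune cells, differed by -0.92 ± 0.39 (adjusted p = 0.797), and Acsl4 and Acsl5, activating enzymes with wide expression, were the other two with negative values. Limma called 0 members and 0% of genes. At an unadjusted p below 0.05 it had 2 members higher and 1 lower, beside 2.11% and 4.09% of genes, and voom called 0. The median was 0.20 without PNXM654, 0.26 without PNXM647, 0.69 without PNXM648 and 0.72 without PNXM656, and 0.05 with the marker covariate. The mitochondrial share was lower in the knockout preparations (46.8 to 69.3% against 75.6 to 79.3%), fibroblast markers summed to 1002 to 1402 FPKM against 1408 to 2007 FPKM, and their part was not tested.

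The response to isoproterenol in wild-type preparations had the largest single differences of the 4 comparisons. Positive differences were found for 29 of 34 members, with a median of 0.58, beside 54.1% of all genes and a median of 0.04, whereas per assigned read the medians were -0.49 and -0.78, and with equal totals outside the mitochondrial chromosome -0.16 and -0.52. Etfb, the beta subunit of electron transfer flavoprotein, differed by 1.52 ± 0.51 (adjusted p = 0.146), Ech1, an isomerase for unsaturated fatty acids, by 1.41 ± 0.56, and Cd36 by 0.71 ± 0.24 (adjusted p = 0.150). Acsl3, Acsl4 and Cpt1a differed by -0.55 ± 0.16 (adjusted p = 0.116), -0.58 ± 0.22 and -0.54 ± 0.21. None of these passed, and limma called 0 members where it called 0.654% of genes higher and 0.0503% lower. At an unadjusted p below 0.05 there were 10 members higher and 3 lower, beside 12.8% and 11.5% of genes, and voom called 0 members.

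All 4 isoproterenol libraries lay above all 3 saline libraries in 12 members, which held for 11.7% of genes, and below them in Acsl3, Acsl4 and Cpt1a, which held for 7.11%. The 12 were Cd36, Acads, Hadha, Hadh, Acaa2, Ech1, Eci1, Decr1, Etfb, Acot13, Mlycd and Acacb. The wild-type marker sums were also separate for cardiomyocytes (1022 to 1702 FPKM after saline and 2528 to 8032 FPKM after isoproterenol), endothelium (181 to 269 FPKM and 313 to 466 FPKM) and fibroblasts (755 to 1361 FPKM and 1408 to 2007 FPKM), and so was the mitochondrial share (55.3 to 65.0% and 75.6 to 79.3%). The part of these markers and of the mitochondrial share was not tested. The median was 0.34 without PNXM648 and -0.13 with the marker covariate, which cannot separate treatment from a marker level that did not overlap.

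In knockout preparations isoproterenol gave positive differences for 29 of 34 members, with a median of 0.48, beside 50.6% of all genes and a median of 0.00496, and per assigned read the medians were 1.09 and 0.45. Acsl1, the activating enzyme of heart and fat that feeds oxidation, differed by 0.78 ± 0.38 (adjusted p = 0.582), Acacb, which makes malonyl-CoA at the mitochondrial surface, by 0.71 ± 0.37 (adjusted p = 0.582) and Acsl4 by -0.48 ± 0.22 (adjusted p = 0.582). Limma called 0 members and 0% of genes, voom called 0 members, and at an unadjusted p below 0.05 there were 0 members higher and 1 lower, beside 3.06% and 3.71% of genes. The median was 0.26 without PNXM654, 0.76 without PNXM656 and 0.05 with the marker covariate. Lymphocyte markers summed to 39.0 to 98.0 FPKM after saline and 12.7 to 38.7 FPKM after isoproterenol, the mitochondrial share was 69.3 to 80.0% and 46.8 to 69.3%, and their part was not tested.

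The difference between the responses of the 2 genotypes was tested as an interaction. It was positive for 11 of 34 members, with a median of -0.11, beside 47.2% of all genes and a median of -0.02. Per assigned read the members' median was 1.55 and that of all genes 1.27. The members' median turned sign without PNXM648 (0.12), PNXM656 (0.11) or PNXM657 (0.02), and it was -0.33 without PNXM654. With the marker covariate it was 0.15, with 27 of 34 members higher. The smallest p-values belonged to Acsl3 (0.47 ± 0.23, adjusted p = 1.000), Ucp2 (-0.90 ± 0.59, adjusted p = 1.000) and Cpt1a (0.44 ± 0.30, adjusted p = 1.000). Limma called 0 members and 0% of genes. At an unadjusted p below 0.05 the count was 0 members, beside 0.411% of genes higher and 2.06% lower, and voom called 0. The 4 comparisons share their control groups pairwise, so their like pattern is no independent evidence.

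The values of single genes follow by step of the pathway, with libraries in the order PNXM649, PNXM657 and PNXM661 (wild-type saline), PNXM658, PNXM663 and PNXM664 (knockout saline), PNXM644, PNXM645, PNXM647 and PNXM648 (wild-type isoproterenol), PNXM646, PNXM654, PNXM655 and PNXM656 (knockout isoproterenol), PNXM227, PNXM230, PNXM238, PNXM240 and PNXM241 (hearts labelled wild-type) and PNXM199, PNXM229, PNXM239 and PNXM242 (hearts labelled knockout).

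For uptake, Cd36 was at 103, 121 and 144 FPKM in wild-type and 195, 188 and 146 FPKM in knockout preparations after saline, and at 274, 193, 162 and 185 FPKM in wild-type and 245, 201, 217 and 287 FPKM in knockout preparations after isoproterenol. The highest Cd36 values among the preparations were in PNXM656 and PNXM644, which are low in cardiomyocyte markers and have the 2 highest sums of endothelial markers among all libraries (457 and 466 FPKM), a cell type that is also known to express Cd36. Whole hearts had the lowest endothelial sums (111 to 152 FPKM), and the part of endothelium in the Cd36 values was not tested. For Cd36 whole hearts had 309, 304, 259.7, 290.3 and 297 FPKM when labelled wild-type and 215, 259, 191 and 286 FPKM when labelled knockout. With the cardiomyocyte marker covariate the Cd36 difference was 0.67 between genotypes after saline and 0.88 for isoproterenol in wild-type preparations, against 0.52 and 0.71 without it. Slc27a1 was at 6.11, 6.84 and 7.66 FPKM in wild-type and 11.7, 11.4 and 9.93 FPKM in knockout preparations after saline, and at 8.16, 9.60, 7.13 and 14.6 FPKM in wild-type and 10.6, 25.1, 18.3 and 8.43 FPKM in knockout preparations after isoproterenol. After saline the genotypes did not overlap in Slc27a1, and after isoproterenol they did.

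In activation, the members split by isoform. Acsl1 was at 7.15, 3.88 and 5.63 FPKM in wild-type and 8.09, 6.16 and 6.73 FPKM in knockout preparations after saline, and at 5.92, 9.73, 4.65 and 12.4 FPKM in wild-type and 10.02, 24.6, 15.8 and 6.26 FPKM in knockout preparations after isoproterenol. For Acsl1 whole hearts had 61.9, 59.4, 54.1, 55.3 and 54.3 FPKM when labelled wild-type and 40.9, 49.4, 43.5 and 53.1 FPKM when labelled knockout, so every whole heart was above every preparation. Acsl4 was at 3.90, 4.15 and 4.63 FPKM in wild-type and 3.12, 4.27 and 2.97 FPKM in knockout preparations after saline, and at 2.73, 3.41, 2.20 and 1.80 FPKM in wild-type and 2.77, 1.22, 1.82 and 3.24 FPKM in knockout preparations after isoproterenol. The Acsl4 values were lowest in PNXM654, PNXM648 and PNXM655, the libraries in which Acsl1 was highest among the preparations. Acsl3 was at 1.22, 1.45 and 1.08 FPKM in wild-type and 1.31, 0.700 and 0.762 FPKM in knockout preparations after saline, and at 0.737, 0.715, 0.325 and 0.400 FPKM in wild-type and 0.835, 0.753, 0.610 and 1.03 FPKM in knockout preparations after isoproterenol. Acsl5, which is prominent in intestine and liver, ranged from 6.02 to 13.01 FPKM in the preparations and from 3.54 to 5.93 FPKM in whole hearts, with its lowest preparation again PNXM654.

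In the carnitine shuttle, Cpt1a was at 13.2, 12.6 and 14.4 FPKM in wild-type and 8.33, 12.1 and 12.1 FPKM in knockout preparations after saline, and at 10.1, 10.3, 9.45 and 6.25 FPKM in wild-type and 11.9, 7.91, 8.13 and 12.4 FPKM in knockout preparations after isoproterenol. Cpt1a is the form of liver and fetal heart, and wild-type saline values were the highest of the 6 group means. Cpt2, the inner transferase, ranged among the preparations from 6.25 FPKM in PNXM657 to 47.2 FPKM in PNXM654, and Crat, which makes short carnitine esters, from 9.42 to 59.9 FPKM in the same libraries.

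The acyl-CoA dehydrogenases begin each round of oxidation and differ in chain length. Acadm, the medium-chain enzyme, stands for them: Acadm was at 30.5, 19.4 and 23.9 FPKM in wild-type and 40.4, 38.6 and 41.4 FPKM in knockout preparations after saline, and at 27.5, 40.3, 19.9 and 63.1 FPKM in wild-type and 48.7, 95.3, 64.5 and 28.6 FPKM in knockout preparations after isoproterenol. PNXM654 was the highest preparation and PNXM657 the lowest, and the isoproterenol groups overlapped. For Acadm whole hearts had 195, 208, 175, 188 and 233 FPKM when labelled wild-type and 147, 159.8, 125 and 181 FPKM when labelled knockout. The 5 dehydrogenases that passed the filter (Acadvl, Acadl, Acadm, Acads and Acad11) had positive differences in all 4 cardiomyocyte comparisons, from 0.25 to 1.26.

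Of the later steps, Hadha carries the alpha subunit of the trifunctional protein, with hydratase and dehydrogenase activity for long chains. Hadha was at 17.9, 12.8 and 15.2 FPKM in wild-type and 23.5, 18.4 and 21.1 FPKM in knockout preparations after saline, and at 20.2, 23.5, 19.5 and 48.1 FPKM in wild-type and 29.05, 72.9, 49.2 and 16.6 FPKM in knockout preparations after isoproterenol. The lowest knockout value, 16.6 FPKM, lay within the saline range of the wild-type preparations and below that of the knockout preparations. For Hadha whole hearts had 93.2, 92.8, 89.5, 83.8 and 117 FPKM when labelled wild-type and 69.8, 75.2, 64.7 and 84.4 FPKM when labelled knockout. Hadhb, Hadh, Echs1 and Acaa2 had positive differences in all 4 cardiomyocyte comparisons, and so did the auxiliary enzymes Ech1, Eci1, Eci2 and Decr1, which handle double bonds.

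Electron transfer was measured by 3 genes. Etfdh was at 7.17, 4.60 and 5.29 FPKM in wild-type and 8.02, 7.31 and 8.68 FPKM in knockout preparations after saline, and at 6.31, 9.60, 4.34 and 13.3 FPKM in wild-type and 10.2, 18.03, 12.8 and 6.37 FPKM in knockout preparations after isoproterenol. For Etfdh whole hearts had 48.3, 53.4, 45.4, 49.9 and 55.7 FPKM when labelled wild-type and 36.7, 38.1, 32.4 and 45.4 FPKM when labelled knockout. Etfdh, the oxidoreductase that passes the electrons to ubiquinone, was higher in every whole heart than in every preparation. Etfb was at 63.5, 37.04 and 41.9 FPKM in wild-type and 94.02, 84.4 and 88.7 FPKM in knockout preparations after saline, and at 105, 95.7, 105 and 309 FPKM in wild-type and 102, 330.2, 261 and 74.04 FPKM in knockout preparations after isoproterenol. PNXM648 was the highest of the wild-type isoproterenol preparations, and the other 3 also lay above all wild-type saline preparations. Among the thioesterases, Acot2 was at 4.20, 2.83 and 4.07 FPKM in wild-type and 5.47, 5.95 and 6.01 FPKM in knockout preparations after saline, and at 4.80, 5.12, 2.54 and 8.41 FPKM in wild-type and 6.65, 12.8, 8.24 and 5.59 FPKM in knockout preparations after isoproterenol. For Acot2 whole hearts had 29.2, 21.2, 20.1, 20.2 and 20.9 FPKM when labelled wild-type and 17.2, 21.7, 15.2 and 17.3 FPKM when labelled knockout.

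The uncoupling proteins had their highest preparations in different libraries. Ucp3 was at 1.66, 2.51 and 2.49 FPKM in wild-type and 2.76, 3.12 and 6.03 FPKM in knockout preparations after saline, and at 1.44, 1.57, 0.964 and 5.20 FPKM in wild-type and 5.93, 9.51, 4.48 and 3.08 FPKM in knockout preparations after isoproterenol. The Ucp3 groups overlapped after isoproterenol through PNXM648, the highest wild-type library. Ucp2 was at 48.9, 27.4 and 20.2 FPKM in wild-type and 22.6, 26.7 and 43.03 FPKM in knockout preparations after saline, and at 29.1, 17.9, 77.4 and 37.4 FPKM in wild-type and 17.1, 14.9, 18.7 and 22.6 FPKM in knockout preparations after isoproterenol. The highest Ucp2 value, 77.4 FPKM, was in PNXM647, the library with the highest neutrophil marker sum (2697 FPKM), and without PNXM647 the genotype difference after isoproterenol was -0.55 in place of -0.92. After saline the highest value was in PNXM649, which had the highest macrophage (543 FPKM) and neutrophil (377 FPKM) sums of its group. The part of these cells in the Ucp2 values was not tested.

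Among the regulators, Acacb was at 3.15, 2.55 and 4.70 FPKM in wild-type and 5.53, 6.43 and 4.27 FPKM in knockout preparations after saline, and at 5.24, 6.68, 4.71 and 12.6 FPKM in wild-type and 6.30, 17.5, 12.7 and 5.22 FPKM in knockout preparations after isoproterenol. Acacb makes the malonyl-CoA that holds back Cpt1, and Mlycd, which removes it, ranged among the preparations from 4.63 FPKM in PNXM657 to 38.5 FPKM in PNXM654, so both sides of this control had their highest preparation in the same library. Lpin1, a phosphatidate phosphatase and coactivator of PPAR alpha, ranged from 3.42 to 10.6 FPKM in the preparations.

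**Figure D4:**
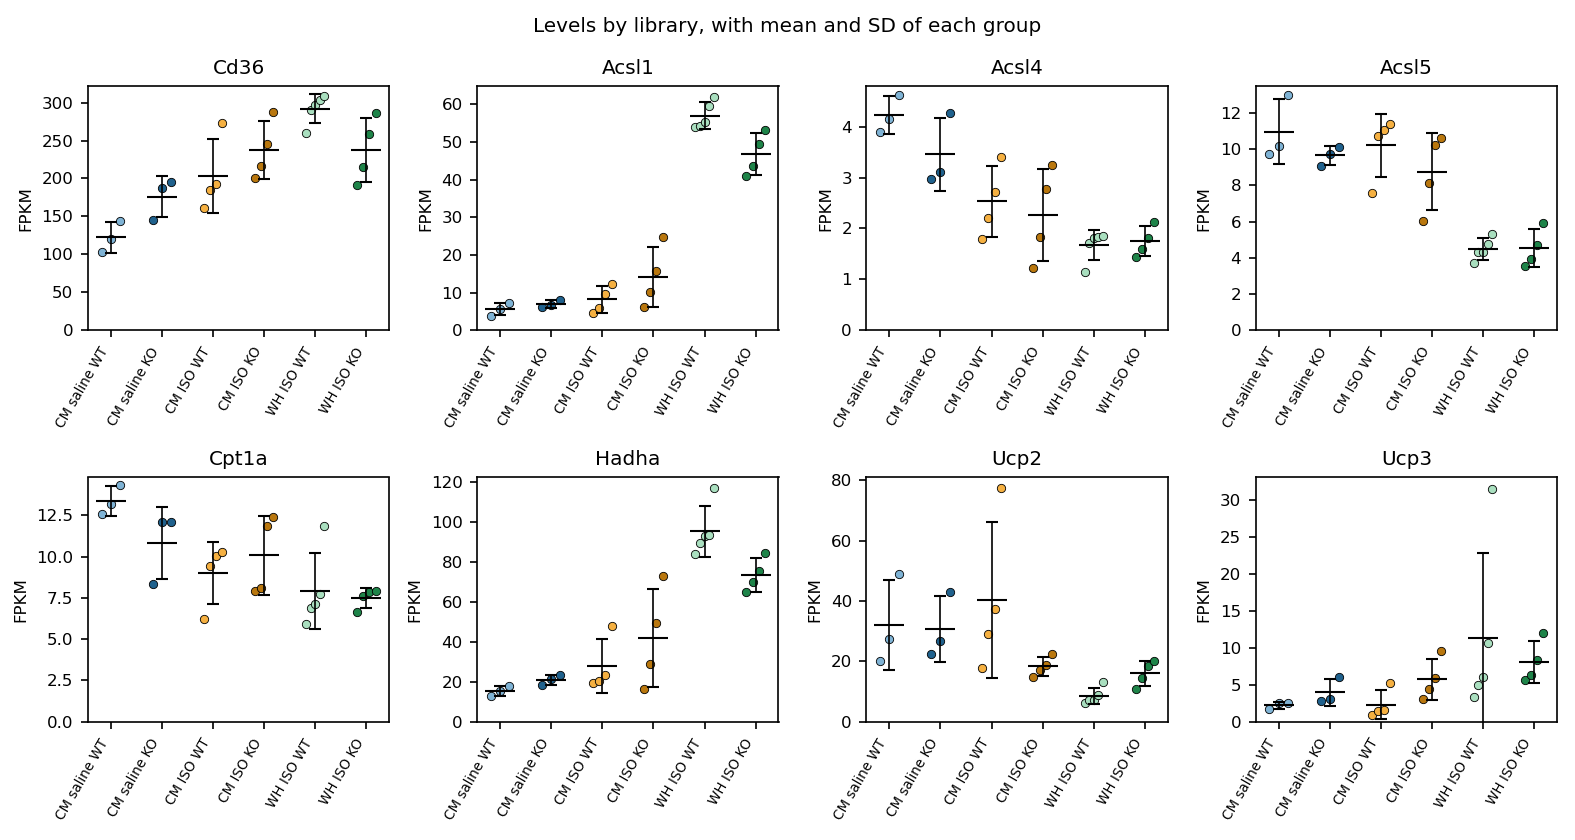
FPKM of 8 members by library in the 6 groups (points), with the mean (bar) and SD (whiskers) of each group; CM is a cardiomyocyte preparation, WH a whole heart, WT and KO the genotype label, ISO isoproterenol. Acsl1 and Hadha are higher in whole hearts, Acsl4, Acsl5, Cpt1a and Ucp2 are not, and 1 heart labelled wild-type is at 31.4 FPKM of Ucp3.

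In whole hearts after isoproterenol most members had lower means in those labelled knockout. Of the 33 that passed the filter (1 FPKM in at least 4 hearts; Acsl3, Cpt1b and Acad10 did not), 2 had positive differences, Ucp2 and Acsl4, and the median was -0.31, beside 38.2% of all genes higher and a median of -0.04. Ucp2 differed by 0.84 ± 0.21 (adjusted p = 0.499), Etfdh by -0.40 ± 0.12 (adjusted p = 0.578) and Acacb by -0.43 ± 0.13 (adjusted p = 0.578). For Acacb whole hearts had 24.8, 26.8, 32.3, 25.5 and 26.1 FPKM when labelled wild-type and 15.5, 20.3, 21.5 and 22.5 FPKM when labelled knockout, and the groups did not overlap. For Ucp2 whole hearts had 13.02, 7.23, 8.88, 6.24 and 7.27 FPKM when labelled wild-type and 20.1, 10.96, 14.5 and 18.3 FPKM when labelled knockout, and PNXM227 lay within the range of the hearts labelled knockout. Macrophage markers, 7 of 8 of them above 1 FPKM on average, summed to 65.4 to 97.9 FPKM in hearts labelled wild-type and 89.6 to 144 FPKM in those labelled knockout. Under the wild-type label PNXM240 had the highest sum and the lowest Ucp2, and PNXM227, highest in Ucp2, had a sum of 77.0 FPKM. Under the knockout label PNXM199 was highest in both. The part of macrophages in the Ucp2 values was not tested.

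Limma called 0 members and 0% of the 10189 genes in this contrast. At an unadjusted p below 0.05 there were 1 member higher and 13 lower, beside 2.26% and 4.14% of genes, and voom called 0. All hearts labelled knockout lay below all labelled wild-type in 4 members (Acsl1, Cpt2, Acadvl and Acacb), which held for 1.63% of genes, and above in 0, which held for 0.756%. Cardiomyocyte markers summed to 6348 to 8742 FPKM in hearts labelled knockout and 8650 to 13233 FPKM in those labelled wild-type, and the median with the marker covariate was -0.21. Without the 2 hearts richest in adipocyte markers, PNXM199 and PNXM239, it was -0.24.

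The difference between labels was compared across tissues, a test added after the data were seen. The label difference was lower in whole hearts than in preparations for 30 of 33 members and higher for 3, beside 43.8% of all genes higher. The members' median was -0.72, beside -0.04 over all genes, and -0.44 without PNXM654. Ucp2 had the smallest p, at 1.76 ± 0.45 (adjusted p = 0.320), followed by Acot2 at -0.92 ± 0.35 (adjusted p = 0.413) and Etfdh at -0.87 ± 0.39 (adjusted p = 0.442). Limma called 0 members and 0% of the 11386 genes. At an unadjusted p below 0.05 it had 1 member higher and 6 lower, beside 6.72% and 4.17% of genes, and voom called 0. Both label differences are those given above, and with the marker covariate the median was -0.12.

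Whole hearts and preparations after isoproterenol were the contrast with members called. Of 33 members, 28 were called higher in whole hearts, against 37.4% of all genes, and 3 lower, against 31.1%; these were Acsl4, Acsl5 and Ucp2, which were at 0.53, 0.16 and 0.09 per assigned read. That scaling moved the median of all genes in this contrast to 0.94. The median was 1.39, beside 0.08 over all genes, and it was 1.75 between the groups labelled wild-type and 0.99 between those labelled knockout, where 19 were called higher, against 23.1% of all genes, and 1 lower, against 19.6%. Tissue, isolation of the cells and library preparation cannot be told apart in this contrast. The smallest p-values belonged to Acadvl, the very-long-chain dehydrogenase, at 2.37 ± 0.16 (adjusted p = 6.74e-09), Lpin1 at 1.88 ± 0.16 (adjusted p = 7.15e-08) and Etfdh at 2.12 ± 0.19. Large differences were also found for Acsl1 at 2.27 ± 0.22 and Hadhb at 2.10 ± 0.26.

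By library, Acadvl was at 19.00, 22.4, 14.5 and 26.8 FPKM in wild-type and 24.6, 36.8, 25.8 and 15.4 FPKM in knockout preparations after isoproterenol, and whole hearts had 130.0, 130.2, 123, 132 and 163 FPKM when labelled wild-type and 111, 106, 88.7 and 119 FPKM when labelled knockout. Lpin1 was at 3.81, 4.13, 3.88 and 6.54 FPKM and 5.21, 10.6, 7.94 and 3.73 FPKM in the same preparations, and whole hearts had 24.4, 23.6, 28.7, 24.4 and 24.4 FPKM when labelled wild-type and 14.9, 21.8, 19.3 and 26.2 FPKM when labelled knockout. Both genes, like Acsl1 and Etfdh above, had every whole heart above every preparation. The share of all genes that did so was not counted, and 37.4% of all genes were called higher in whole hearts. All 5 dehydrogenases that passed, all 5 genes of the later steps, all 4 auxiliary enzymes and all 3 electron transfer genes were among the 28, from 0.88 for Etfb to 2.37 for Acadvl. Cd36 (0.27 ± 0.14, adjusted p = 0.0885) and Cpt1a (-0.27 ± 0.13, adjusted p = 0.0838) did not pass.

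The cardiomyocyte markers were also higher in whole hearts, and with their level as a covariate 14 members were called higher, against 24.8% of all genes, and 1, Acsl5, lower, against 23.9%, with a median of 0.27. Acadvl (1.76), Acsl1 (1.29), Etfdh (1.27), Lpin1 (1.16), Acadl (1.08), Acadm (0.94) and Hadhb (0.88) were then among those called higher, whereas Fabp3 was at -0.01. The isoproterenol preparations PNXM654, PNXM655 and PNXM648 had marker sums of 7753 to 10244 FPKM. Their Acadvl was 25.8 to 36.8 FPKM against 88.7 to 163 FPKM in whole hearts, and their Fabp3 was 1474 to 2313 FPKM against 1490.2 to 3568 FPKM. These 2 genes are examples from the same data as the fit and add no independent evidence. The call of Acsl4 (-0.30 ± 0.12, adjusted p = 0.0409) was lost when PNXM199, PNXM229, PNXM230, PNXM241, PNXM242, PNXM644, PNXM645, PNXM646 or PNXM656 was left out. It was also lost without the filter (-0.30), with equal totals outside the mitochondrial chromosome (-0.17), and between groups labelled wild-type (-0.39) or knockout (-0.21) alone. Ucp2 (-1.09 ± 0.23, adjusted p = 4.55e-04) was not called with the covariate (-0.77) or between the groups labelled knockout (-0.20).

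**Figure D5:**
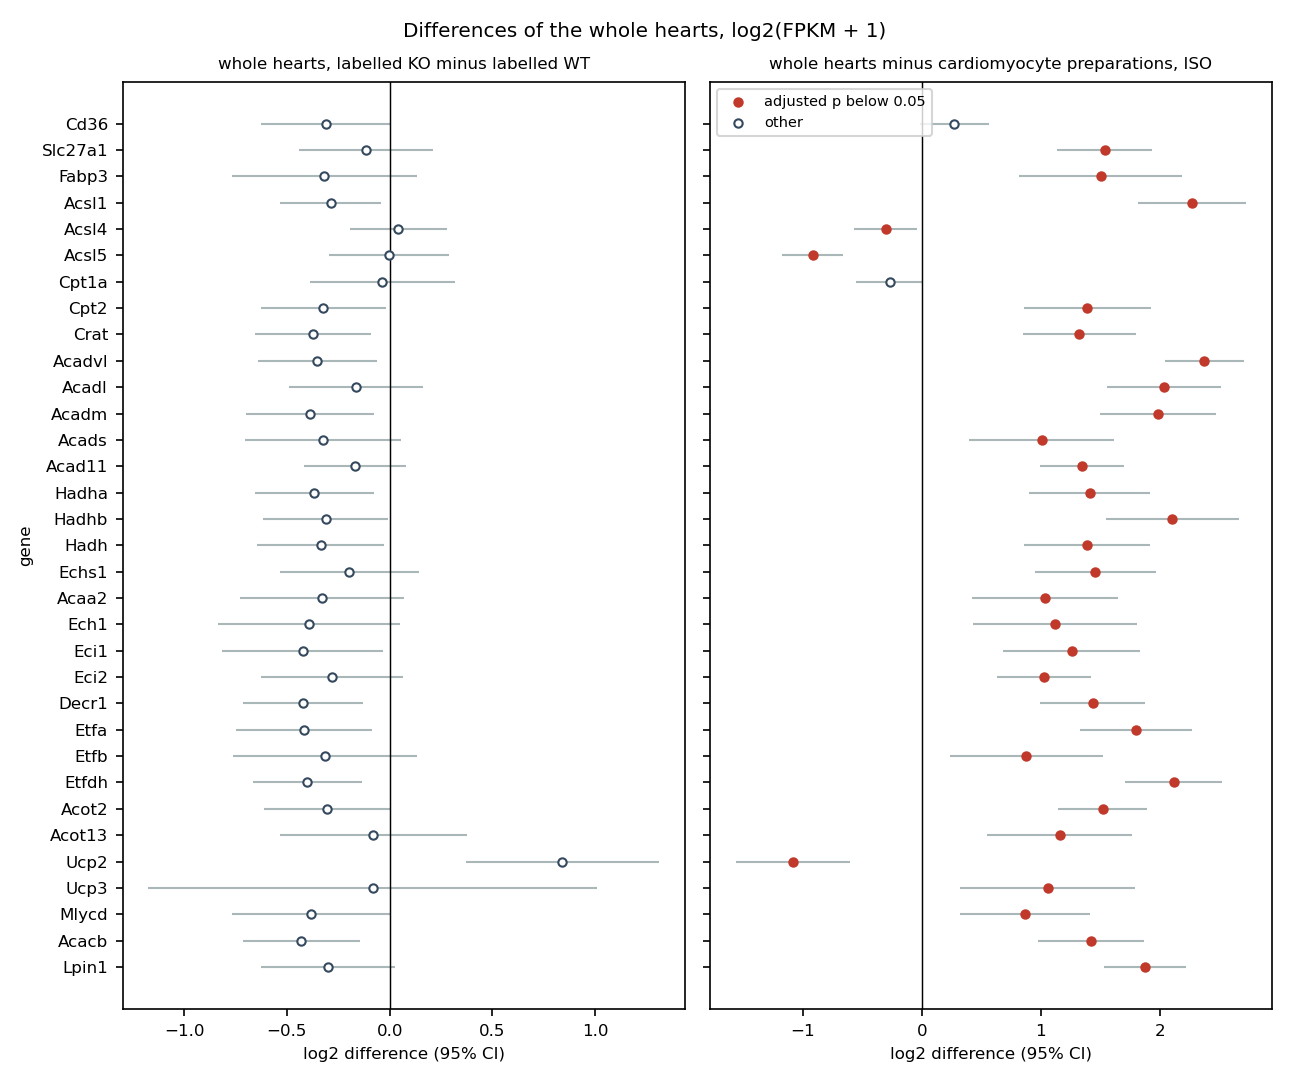
Differences of log2(FPKM + 1) for the 33 members that passed the filter, with 95% confidence intervals from limma, between hearts by label (left) and between whole hearts and preparations after isoproterenol (right); filled points have an adjusted p below 0.05. On the left 31 points lie below 0 and none is filled, and on the right 28 filled points lie above 0 and 3 below, whose differences are above 0 per assigned read.

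Other genes of fatty acid metabolism, 72 in 5 lists, were taken beside the members. In the 4 comparisons of preparations, their interaction and the hearts by label limma called 0 of the 62 or 63 that passed the filter. The nearest to the threshold were in the wild-type response: G0s2, an inhibitor of the main triglyceride lipase, at 1.49 ± 0.32 (adjusted p = 0.0526), and Mgll, monoglyceride lipase, at 1.01 ± 0.22 (adjusted p = 0.0581). G0s2 was 19.9 to 33.2 FPKM after isoproterenol against 6.66 to 10.6 FPKM after saline. In that comparison 17 of the 62 were higher at an unadjusted p below 0.05 and 0 lower, beside 12.8% and 11.5% of genes. Of all genes 54.1% had positive differences there. Lipolysis and lipid droplet genes had positive differences in 15 of 16 (median 0.83), other uptake and mitochondrial genes in 14 of 15 (0.49), regulators and their targets in 8 of 10 (0.13), peroxisomal genes in 6 of 12 (0.05) and synthesis genes in 3 of 9 (-0.19).

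Between genotypes, positive differences were found in 45 of 62 of these genes after saline and in 45 of 62 after isoproterenol, beside 51.6% and 51.4% of all genes. Plin4, a lipid droplet coat protein, differed by 0.82 ± 0.35 after saline (adjusted p = 0.895), and Pdk4, which holds back pyruvate oxidation, by 1.07 ± 0.32 after isoproterenol (adjusted p = 0.797). Pdk4 was 27.9, 38.9, 18.1 and 19.01 FPKM in knockout against 13.5, 12.1, 6.48 and 14.9 FPKM in wild-type isoproterenol preparations. All knockout libraries lay above all wild-type libraries, which held for 0.873% of all genes and for 0 of the 34 members. In hearts by label 21 of 63 were positive, beside 38.2% of all genes. Abcd3, a peroxisomal transporter, differed there by -0.28 ± 0.08 (adjusted p = 0.565), Acot1, a cytosolic thioesterase, by -0.75 ± 0.23 (adjusted p = 0.578) and Scd2, a desaturase of fatty acid synthesis, by 0.64 ± 0.21 (adjusted p = 0.630).

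Between tissues, 40 of the 63 were called higher in whole hearts and 9 lower, against 37.4% and 31.1% of all genes. Higher were 13 of 16 other uptake and mitochondrial genes, such as Acss1, a mitochondrial acetyl-CoA synthetase (2.21 ± 0.21), 8 of 11 peroxisomal genes, and 10 of 16 lipolysis and lipid droplet genes, such as Gpam, which starts glycerolipid synthesis (2.35 ± 0.18). Of 11 regulators and targets 6 were called higher, among them Pdk4 (2.62 ± 0.34), the coactivator Ppargc1a (2.58 ± 0.21) and Ppara (2.14 ± 0.18), and Pparg (-0.63 ± 0.12) and Angptl4 (-1.04 ± 0.30) were called lower. Fabp4 (-0.73 ± 0.22) and Fabp5 (-1.07 ± 0.17), fatty acid carriers of endothelium and other cells, were called lower, and so were Mgll (-1.23 ± 0.12) and Lipe (-0.61 ± 0.16). Of the synthesis genes 3 of 9 were called higher and 3 lower (Elovl1, Elovl5 and Acly), near the shares of all genes.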

How the data were processed

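The deposited table holds FPKM for 46077 genes in 23 libraries; 1 misaligned line was left out, and 27 gene symbols that had turned into dates were restored from the gene ID. Per the submitters' processing notes, HISAT2 2.0.5 and featureCounts were used, with no role given, and the authors deposited FPKM. No source used here names the genome build; coordinates were read as GRCm38, since 99.9% of 45228 genes shared with GENCODE M21 overlap their place there. FPKM times gene length gives whole reads within 2.1e-06 of a read for 425611 low values, and the library size that the authors divided by is 0.426 to 1.88 times the assigned reads, which means that libraries had been scaled before deposit. Column names give a group but no replicate number. WHO in a column name was read as whole heart.

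The members and gene lists were chosen with earlier results of these data known. Differences were fitted with limma 3.58.1 (R 4.3.3), with a mean-variance trend, after log2(FPKM + 1). Tests were two-sided, and each adjusted p is Benjamini-Hochberg's over every gene that reached 1 FPKM in 3 preparations, or in 4 libraries in the other fits. The 14 preparations shared 1 fit, the 9 hearts another, and the 17 isoproterenol libraries the third. A fold change on this scale understates changes of low genes. Scripts were tested on simulated data. All 36 members are accounted for; library values are given for a representative of each step and for the 3 members with the smallest p in each comparison, and from the other lists genes with the smallest p, all those called lower, and examples of those called higher that were chosen after their values were seen. Tables and figures used Python 3.11.15, numpy 2.4.6, pandas 2.3.3 and matplotlib 3.10.9.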

Additional observations from a re-analysis of the deposited data

Results flagged for a closer look

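For independent, normal values Dixon's 95% limit flags about 1 set in 20 by chance. Of 144 sets (36 members in the 4 groups of 4 or 5 libraries), 24 had 1 library farther out than this limit allows. In PNXM648, a wild-type isoproterenol preparation, these were high values of Fabp3 (1509 FPKM), Ech1 (308 FPKM), Etfb (309 FPKM), Acot13 (121 FPKM), Eci1 (112 FPKM), Acads (54.9 FPKM), Hadha (48.1 FPKM), Hadh (39.97 FPKM), Lpin1 (6.54 FPKM) and Ucp3 (5.20 FPKM). In PNXM241, a heart labelled wild-type, they were high values of Etfb (439 FPKM), Acot13 (242 FPKM), Acadvl (163 FPKM), Hadha (117 FPKM), Acads (101.2 FPKM), Cpt2 (72.9 FPKM) and Echs1 (59.3 FPKM), and a low value of Acsl4 (1.15 FPKM). PNXM648 and PNXM241 also had the highest cardiomyocyte marker sums of their groups (8032 and 13233 FPKM), and the part of this in the values was not tested. Members vary together over libraries, so their sets are not independent, and the same count over all genes was not made. PNXM648 was the highest of its group for 32.6% of genes averaging at least 1 FPKM, and PNXM241 for 44.1%.

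The remaining 6 were in other hearts. PNXM227, labelled wild-type, was high in Ucp3 (31.4 FPKM) and Acot2 (29.2 FPKM), and PNXM238, labelled wild-type, stood apart in Acacb (32.3 FPKM) and Lpin1 (28.7 FPKM). PNXM239, labelled knockout and lowest of its group in cardiomyocyte markers, was low in Acadl (205 FPKM) and Acot13 (108 FPKM).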

How the results depend on the processing

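No paired analysis was possible because the columns carry no replicate number. Of the values recomputed for counts of calls and medians, 369 stayed within 1.5 times the count or 1 SD between libraries and 27 moved; of those for single genes, 870 kept direction and side of the threshold, 17 came to pass it, 19 no longer passed and 14 turned sign. The cause was not tested.

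Per assigned read, the medians over members were -0.29 for genotype after saline (5 called lower, against 52.9% of genes), 1.13 after isoproterenol (25 called higher, against 44.9%), -0.49 for isoproterenol in wild-type (7 called lower, against 66.9%) and 1.09 in knockout preparations, 1.55 for the interaction (24 called higher, against 86.1%), -0.16 for hearts by label, -1.36 for the label difference between tissues (8 called lower, against 14.5%) and 2.53 between tissues. Single genes that turned were Cd36 (-0.47), Slc27a1 (-0.27) and Acot2 (-0.25) after saline, Cd36 in the wild-type response (-0.48), Ucp2 in the interaction (0.88), and Ucp2 (0.094), Acsl4 (0.53) and Acsl5 (0.16) between tissues. With equal totals outside the mitochondrial chromosome the medians were 0.11 after saline, -0.16 in the wild-type response (3 called lower, against 14.3%) and 0.74 for the interaction, and Cd36 was at -0.00733 after saline and -0.060 in the wild-type response, and Ucp2 at 0.0055 in the interaction. Array weights gave 3 calls for isoproterenol in wild-type preparations, 2 higher (6.49% of genes) and 1 lower (4.1%), and 1 higher for the label difference between tissues (1.04%).

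With the cardiomyocyte marker covariate, chosen after seeing the data, medians were -0.11 after saline, -0.13 and 0.050 for isoproterenol in wild-type and knockout preparations, 0.15 for the interaction, -0.12 for the label difference between tissues and 0.27 between tissues (15 called), with Acsl4 at 0.18 and Fabp3 at -0.013. Between knockout groups alone the tissue median was 0.99 (20 called) and Cd36 was at -0.0044.

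Leaving out 1 library gave medians of 0.45 to 0.69 for genotype after saline, 0.20 to 0.72 after isoproterenol, 0.34 to 0.80 and 0.26 to 0.76 for isoproterenol in wild-type and knockout preparations, -0.33 to 0.12 for the interaction, -0.37 to -0.22 for hearts by label, -1.06 to -0.44 for the label difference between tissues and 1.22 to 1.56 between tissues. Between tissues 30 to 32 members were called, higher and lower together, and 0 elsewhere. With all libraries kept, 37.4% of all genes were called higher between tissues and 31.1% lower.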
